A study of Mus musculus with 24 samples.

Results

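The genes described here encode the proteins of the presynaptic terminal that store, release and recover neurotransmitter vesicles. They are 42 genes chosen by name: synaptotagmins, synapsins and other vesicle proteins, the fusion machinery, active zone proteins, endocytic proteins, and the enzymes and transporter of GABA, the main inhibitory transmitter. They were measured among 18193 genes on Affymetrix MG430 2.0 arrays of mouse striatum and cerebellum. Each gene was represented by the probe set with the highest mean over the 24 arrays whose mean reached 4 (log2) in striatum or cerebellum. Of the 42 genes, 41 had such a probe set. Syt10, a synaptotagmin, had a mean of 2.27 in striatum and 2.22 in cerebellum and was not tested. The members nearest the limit that were tested were Sv2c, with a mean of 4.49 in striatum and 2.74 in cerebellum, and Syt6, with 4.75 and 1.35.

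The mice were homozygous for a huntingtin knock-in allele, Q111 (HdhQ111/HdhQ111), or wild type (Hdh+/Hdh+, given as Q7/Q7 in the labels). Each genotype was profiled in each tissue on 6 arrays. Expansion of the glutamine repeat of huntingtin causes Huntington's disease, a disorder that affects projection neurons of the striatum most. All mice were 3 to 10 weeks old, without the age of each being given, and the labels give neither sex nor whether both tissues came from the same animals. The replicates are labelled biological, but separate mice are not named, so a p-value here reflects variation among the samples as hybridised, part of which may be technical.

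At a presynaptic terminal, vesicles are filled with transmitter, tethered by synapsins and Rab3 proteins, docked and primed at the active zone by RIM, Munc13 and ERC proteins, and fused when calcium binds a synaptotagmin. Fusion is driven by the SNARE proteins syntaxin, SNAP-25 and VAMP, with complexin bound to their complex, and NSF with its SNAP adaptors takes the spent complex apart. Vesicle membrane is then recovered through dynamin, amphiphysin and synaptojanin. The striatum consists largely of GABAergic projection neurons, which themselves receive glutamatergic axons from cortex and thalamus; the cerebellum holds glutamatergic granule neurons and GABAergic Purkinje cells and interneurons. Most messenger RNA for these proteins lies in the cell body rather than in the terminal.

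RefSeq promoter windows of 300 bases on GRCm38.p6, 250 before and 50 after an annotated start, were matched by symbol for 33 of the 42 genes. Stretches upstream of the start are shown for some members with a tissue difference, and each one shown holds a motif. The 120 bases before the start of Rims1 and Sv2a, both higher in cerebellum, held none and are not shown. Those of Syt6, higher in striatum and with GC boxes, are not shown either. Stx1a and Sv2c were higher in striatum, Vamp1 and Syp were higher in cerebellum, and Syn1 carries a pair of motifs that few promoters hold. Capitals mark the GC box, GGGCGG on either strand, in the first 4 sequences. In Syn1 they mark the RE1 element, the site of the neuronal repressor REST, and then the cyclic AMP response element (CRE), TGACGTCA. No capital letter belongs to more than 1 motif.
Stx1a, chr5:135023362-135023481, plus strand: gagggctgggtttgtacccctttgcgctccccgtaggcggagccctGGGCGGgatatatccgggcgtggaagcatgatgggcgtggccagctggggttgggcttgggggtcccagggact
Sv2c, chr13:96132578-96132697, minus strand: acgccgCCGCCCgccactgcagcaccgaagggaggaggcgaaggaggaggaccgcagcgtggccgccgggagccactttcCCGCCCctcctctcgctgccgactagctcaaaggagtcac
Vamp1, chr6:125215461-125215580, plus strand: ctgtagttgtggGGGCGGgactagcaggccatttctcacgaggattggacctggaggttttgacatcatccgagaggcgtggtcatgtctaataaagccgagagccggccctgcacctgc
Syp, chrX:7638460-7638579, plus strand: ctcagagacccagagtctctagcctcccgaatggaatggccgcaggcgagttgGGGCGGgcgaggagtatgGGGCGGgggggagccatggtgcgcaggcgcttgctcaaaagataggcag
Syn1, chrX:20920919-20921168, minus strand: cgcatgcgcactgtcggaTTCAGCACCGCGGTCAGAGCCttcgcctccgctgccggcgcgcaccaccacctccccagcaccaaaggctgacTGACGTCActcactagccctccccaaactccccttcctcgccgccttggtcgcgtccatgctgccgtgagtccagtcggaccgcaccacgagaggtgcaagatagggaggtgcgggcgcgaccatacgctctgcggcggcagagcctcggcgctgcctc

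The GC box stood in a window of 25 of the 33 members (75.8%), against 38.2% of the 27025 genes with a window. Those 27025 outnumber the 18193 genes on the arrays, so the share includes genes not measured here. No share among genes expressed in these tissues was computed. It occurred in members of both tissue directions, Stx1a and Sv2c as well as Vamp1 and Syp. TATAAA, searched on both strands, was found in 2 members, Gad1 and Sv2b (6.06%, against 15.7% of all genes). The CRE was found in Napa and Syn1 (6.06%, against 2.03%). A match to the RE1 consensus, on either strand, with at most 3 mismatches was found in Syn1, with 1 mismatch, at -232 to -212 from the start, and in 0.115% of all genes. The motifs and the mismatch limit were chosen after matches in these windows had been seen, other motifs were scanned and are not reported, and genes with several windows have more chances of a match.

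The tissues carried their own marker genes. All 10 measured markers of striatal projection neurons were higher in wild-type striatum, all 9 of cerebellar granule neurons were higher in cerebellum, and of 6 Purkinje cell markers 5 were higher in cerebellum, while Ryr1 was higher in striatum. Arrays of a group correlated at 0.994 to 0.998 over probe sets, and array medians ran from 3.38 to 3.51. The lowest value on an array was 0.36 to 0.38 in striatum and -0.77 to -0.66 in cerebellum, so the bottom of the scale differed between the tissues, and no source used here says if the tissues shared a normalisation. In whole tissue, fewer cells of a type and less RNA per cell cannot be told apart, and this holds for each difference below.

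The release machinery differed in composition between the tissues in both directions. Of the 41 members, 37 differed between wild-type striatum and cerebellum (limma, adjusted p under 0.05), 19 of them higher in striatum and 18 higher in cerebellum. Syt5, Syt6 and Sv2c, among the 19, reached the mean of 4 in striatum alone. The filter itself thus favoured a striatal direction and no overlap for them, and no member was tested through cerebellum alone. The comparison of the wild-type tissues called 71.8% of all 20738 probe sets tested, 30.6% higher in striatum and 41.2% higher in cerebellum, so that most genes of any kind differed. With values under 4 set to 4, 7 members were at least 2-fold higher in striatum and 5 at least 2-fold higher in cerebellum, against 10.6% and 11.9% of all probe sets. The values of the wild-type tissues did not overlap for 31 of 41 members, against 52.2% of all probe sets. Each member stands for its brightest probe set, while the shares here and below cover every tested probe set, dimmer ones included. They are therefore not a matched background. The median difference was 0.10 on the log2 scale for the members, 21 of which lay above 0, and -0.09 for all probe sets, of which 43.8% lay above 0.

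**Figure D1:**
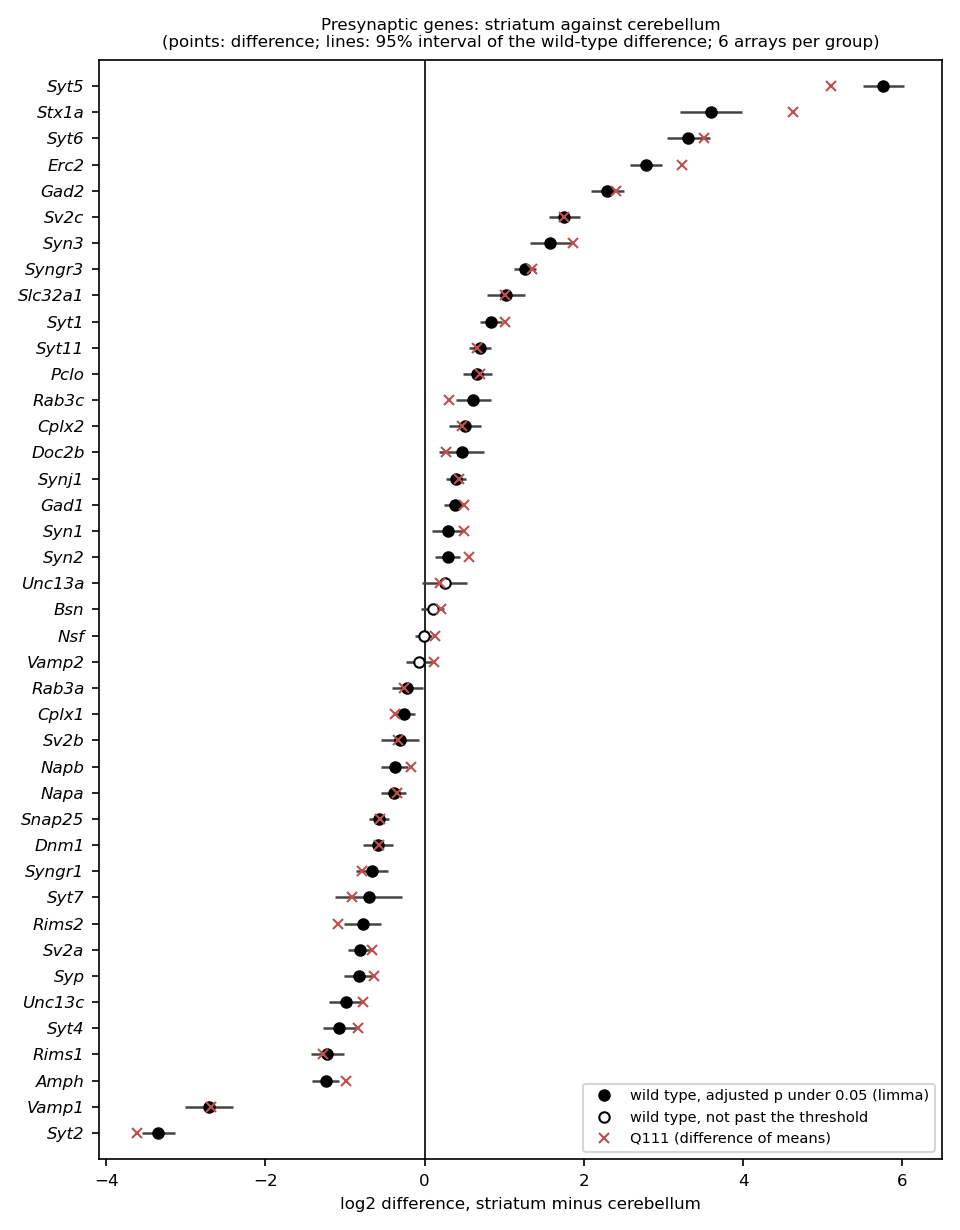
Striatum minus cerebellum on the log2 scale for each of the 41 members, in wild type (circles, with 95% intervals) and in Q111 (crosses, differences of group means without a test). Wild-type differences run from -3.34 for Syt2 to 5.76 for Syt5, open circles mark the 4 members that did not pass the threshold, and the values of Syt5, Syt6 and Sv2c average under 4 in cerebellum.

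The synaptotagmins, the calcium sensors of exocytosis and their relatives, were divided between the tissues. Of the 7 tested, Syt1, Syt5, Syt6 and Syt11 were higher in striatum and Syt2, Syt4 and Syt7 were higher in cerebellum. Syt5 and Syt6 were tested only because of their striatal means. Syt2, a fast calcium sensor of release, read 10.84 to 11.06 in wild-type cerebellum with a median of 10.94. In striatum it read 7.14 to 7.86 with a median of 7.69, a difference of -3.34 (SE 0.10, adjusted p = 4.15e-19), or 10.1-fold. Syt5, a vesicle-associated synaptotagmin, was the mirror image, at 8.68 to 9.29 in striatum (median 8.77) and 2.72 to 3.68 in cerebellum (median 3.10). With values under 4 set to 4, its striatal level was at least 29.7-fold higher, and the measured difference was 5.76 (SE 0.12, adjusted p = 5.92e-22). The lowest array of the higher tissue lay above the highest array of the other for both genes.

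Syt1, the fast calcium sensor of most forebrain synapses, was higher in striatum by a smaller amount, 0.83 (SE 0.07, adjusted p = 9.01e-11). Syt4, which lacks calcium binding in one of its domains and sits on peptide-containing vesicles, read 10.01 to 10.46 in striatum (median 10.22) and 11.12 to 11.52 in cerebellum (median 11.30). Syt6 read 4.40 to 5.27 in striatum (median 4.56) and 1.31 to 1.38 in cerebellum (median 1.36). Its striatal level was at least 1.58-fold higher when values under 4 are set to 4. Syt11, a synaptotagmin that does not bind calcium, differed by 0.70, and Syt7, a slow sensor, by -0.70, the latter with overlapping groups.

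**Figure D2:**
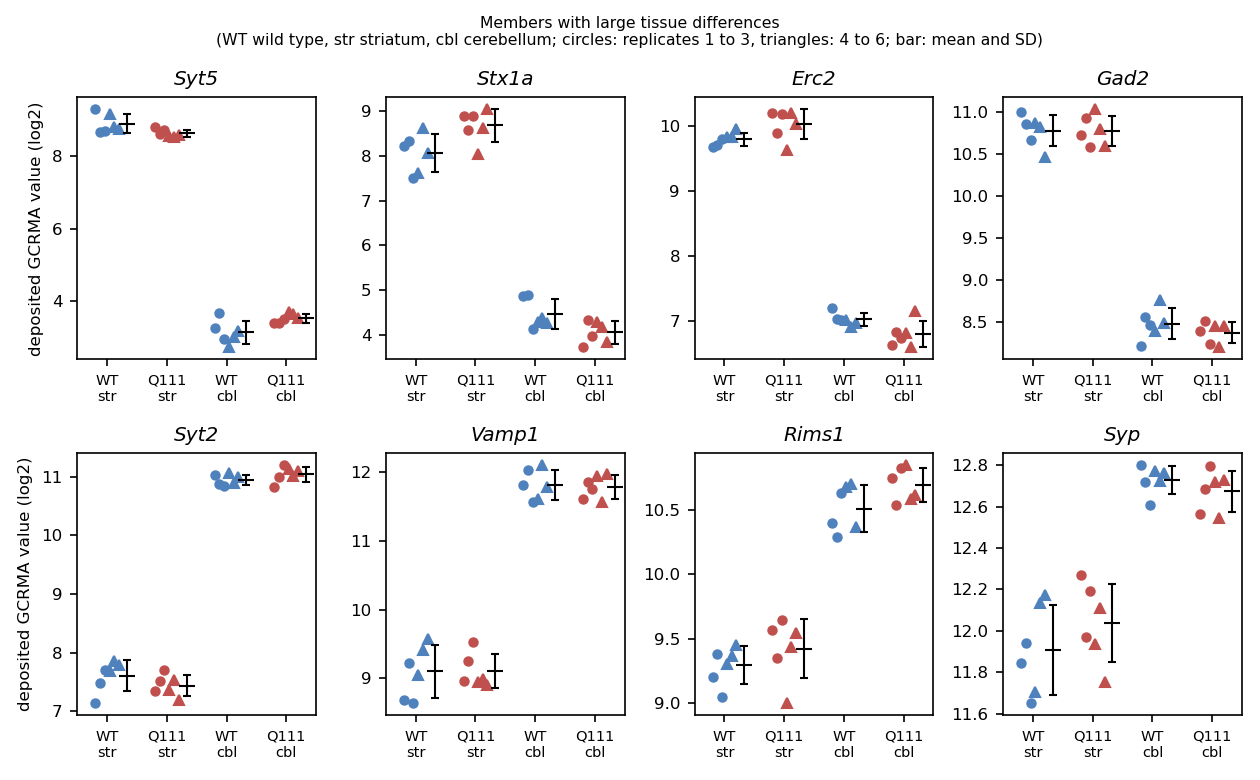
Deposited GCRMA values (log2) on every array for 4 members higher in striatum and 4 higher in cerebellum; circles are replicates 1 to 3, triangles replicates 4 to 6, and bars the group mean and SD of 6 arrays. For each of the 8 genes the arrays of the tissues do not overlap in either genotype, and each panel has its own axis, which does not start at 0.

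Proteins of the vesicle itself were also split, with 5 of 9 higher in striatum and 4 higher in cerebellum. Sv2c, among the 5, was tested only because of its striatal mean. The synapsins, which tether vesicles to each other and to actin, were all higher in striatum. Syn3, the synapsin best known from developing neurons, read 7.62 to 8.23 in striatum (median 7.88) and 6.08 to 6.50 in cerebellum (median 6.35), or 2.99-fold. Syn1 and Syn2 were each higher by 0.29, with adjusted p of 0.00772 and 0.00165. Syn2 had other kept probe sets, and the mean of them all gave -0.019 (adjusted p = 0.878), so its direction rests on the probe set used.

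The glycoproteins of the SV2 family, which bind synaptotagmin, differed by member. Sv2c, found mainly in basal ganglia, read 4.30 to 4.82 in striatum (median 4.36) and 2.57 to 2.81 in cerebellum (median 2.75), at least 1.39-fold higher in striatum. Sv2a read 10.65 to 11.13 in striatum (median 10.78) and 11.53 to 11.73 in cerebellum (median 11.65), a difference of -0.81. Sv2b differed by -0.31 with overlapping groups (adjusted p = 0.0229), a call lost in 6 of 37 alternatives, quantile normalisation and median centring among them.

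Synaptophysin (Syp), an abundant membrane protein of these vesicles, read 11.65 to 12.17 in striatum (median 11.89) and 12.61 to 12.80 in cerebellum (median 12.74). Its relatives, the synaptogyrins, went opposite ways. Syngr3 read 9.08 to 9.39 in striatum (median 9.31) and 7.87 to 8.11 in cerebellum (median 8.01), a 2.40-fold difference, and Syngr1 differed by -0.66. None of these 3 had overlapping groups.

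Of the 9 genes of the fusion machinery, 2 were higher in striatum and 5 in cerebellum. Stx1a, which encodes the plasma membrane SNARE syntaxin-1A, read 7.51 to 8.62 in wild-type striatum (median 8.15) and 4.13 to 4.89 in cerebellum (median 4.33). Its difference of 3.60 (SE 0.19, adjusted p = 2.14e-14) is 12.1-fold. A second probe set, with a cerebellar mean of only 3.13, was at least 22.4-fold higher in striatum when values under 4 are set to 4. Vamp1, the vesicle SNARE most used in brainstem and spinal cord, went the other way. It read 8.64 to 9.57 in striatum (median 9.14) and 11.56 to 12.09 in cerebellum (median 11.79), a difference of -2.71 (SE 0.15, adjusted p = 3.12e-14), or 6.53-fold. Vamp2, the main vesicle SNARE of the forebrain, did not pass the threshold, with a difference of -0.07 and a 95% interval of -0.24 to 0.10.

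Snap25, the partner of syntaxin, was higher in cerebellum by a modest amount, with a difference of -0.57 (SE 0.06) and no overlap. Its other kept probe set differed by -0.07 and did not pass (limma, adjusted p = 0.621). The complexins, which clamp and assist fusion, were opposite, Cplx1 at -0.25 and Cplx2 at 0.51. The adaptors of NSF, Napa and Napb, had differences of -0.39 and -0.38. Nsf itself, the ATPase that separates SNARE complexes, differed by -0.01 (interval -0.12 to 0.09).

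With the probe sets used, active zone and priming genes were divided evenly, 4 higher in striatum, 4 higher in cerebellum and 2, Bsn and Unc13a, not past the threshold. A second kept Bsn probe set did pass, higher in striatum by 0.52 (limma, adjusted p = 0.0107). The mean of the kept Bsn probe sets gave 0.31 (limma, adjusted p = 0.00816). Erc2, a scaffold of the active zone, read 9.67 to 9.95 in striatum (median 9.81) and 6.90 to 7.19 in cerebellum (median 7.01), a 6.85-fold difference. Rims1, the RIM scaffold that recruits calcium channels, read 9.04 to 9.45 in striatum (median 9.33) and 10.29 to 10.71 in cerebellum (median 10.52). Rims2 differed by -0.78, in the same direction. Unc13c, a Munc13 priming factor best known from cerebellar granule neurons, read 9.05 to 9.70 in striatum (median 9.27) and 10.09 to 10.42 in cerebellum (median 10.34).

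Rab3c and Doc2b, a vesicle GTPase and a calcium-binding protein, were higher in striatum by 0.61 and 0.47. Rab3a lay just past the threshold in the other direction, at -0.22 (adjusted p = 0.0480), and lost that call in 23 of 37 alternatives. Pclo, the large scaffold piccolo, differed by 0.66 with the probe set used, while its other 2 kept probe sets differed by -2.34 and -2.15, all past the threshold. Its probe sets therefore disagree, and it stands among the genes higher in striatum by the probe set used alone. Of the 31 members with several kept probe sets, 26 had all of them on the same side of 0, and the exceptions were Nsf, Pclo, Rab3a, Syn2 and Syt1.

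Amph, which encodes the membrane-curving protein amphiphysin, read 9.36 to 9.73 in striatum (median 9.49) and 10.61 to 10.87 in cerebellum (median 10.77). Dnm1, the neuronal dynamin that cuts vesicles from the membrane, differed by -0.59. Synj1, a lipid phosphatase that uncoats recovered vesicles, differed by 0.39. All 3 genes of the GABA group were higher in striatum. Gad2, the terminal-associated enzyme of GABA synthesis, read 10.46 to 10.99 in striatum (median 10.84) and 8.21 to 8.76 in cerebellum (median 8.48), a 4.91-fold difference. The vesicular GABA transporter Slc32a1 was 2.03-fold higher, and Gad1, the other synthetic enzyme, 1.30-fold.

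The tissue differences of the Q111 arrays had the same sign for 39 of 41 members and for all 37 that passed in wild type. The exceptions were Nsf and Vamp2, neither of which passed. The member whose tissue difference moved most was Stx1a, from 3.60 in wild type to 4.63 in Q111, where some of its cerebellar values lie under 4. Syt5 went from 5.76 to 5.10 and Erc2 from 2.78 to 3.23.

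In contrast to the tissues, the genotypes differed in no member past the threshold. In striatum limma called 0 of the 41 members, against 2.87% of all probe sets (0.834% higher and 2.03% lower in Q111). At an unadjusted p under 0.05 there were 12 members, against 19% of all probe sets. The members' median difference was 0.08, and 25 of 41 lay above 0, against a median of -0.02 and 44.6% for all probe sets. The 95% intervals had a median half-width of 0.20. For 40 of 41 members the interval lay within a 2-fold change in either direction, the exception being Stx1a, and for 37 within 1.5-fold.

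**Figure D3:**
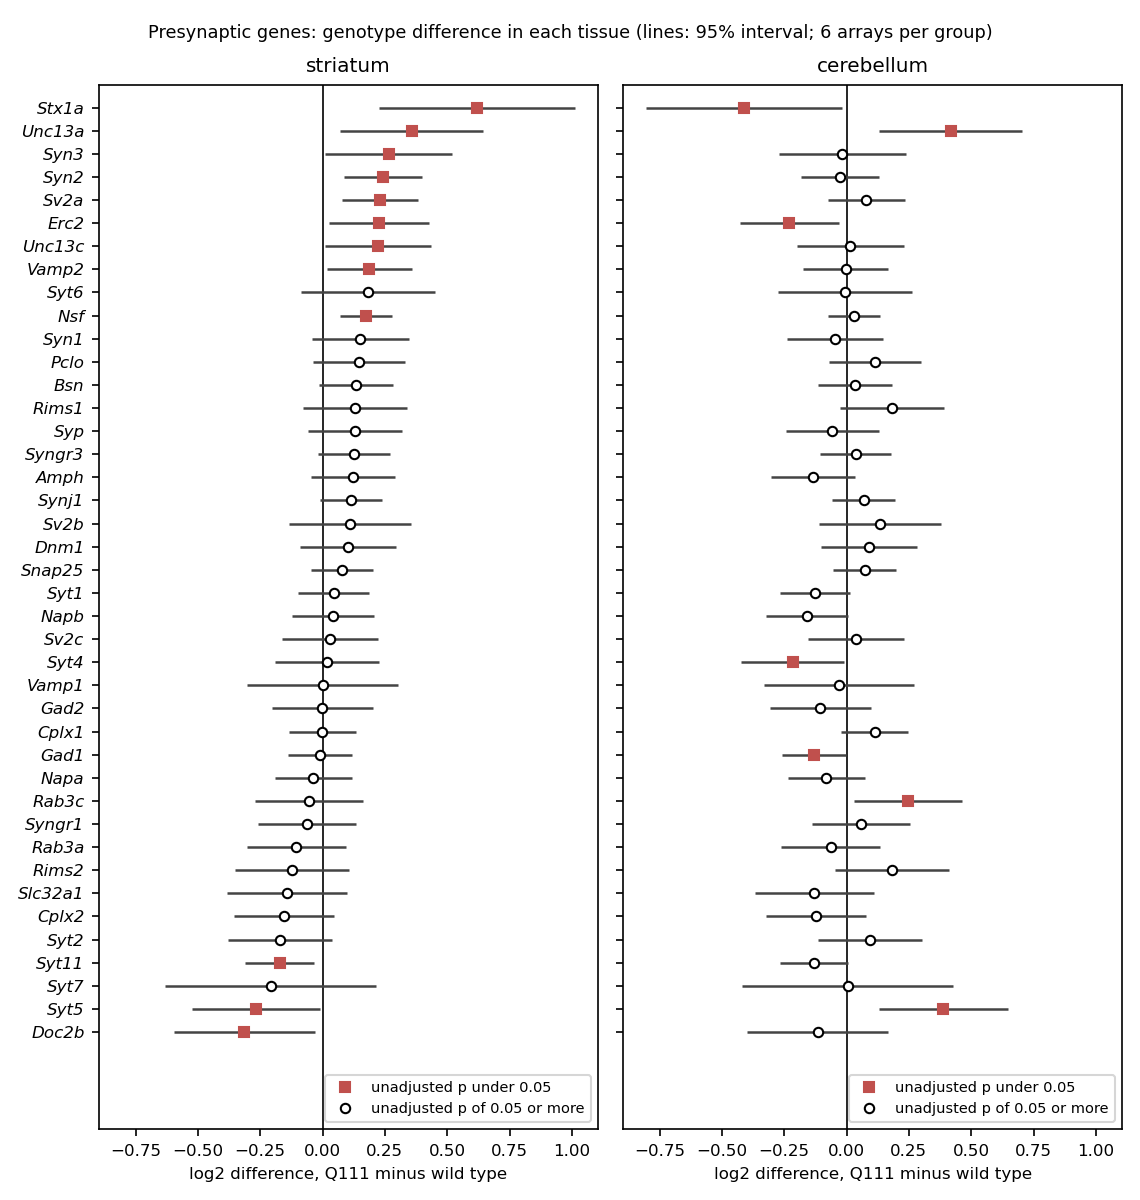
Q111 minus wild type on the log2 scale for each member in striatum (left) and cerebellum (right), ordered by the striatal difference, with 95% intervals from 6 arrays per group. Filled squares mark an unadjusted p under 0.05, 12 members in striatum and 7 in cerebellum; none passed the adjusted threshold.

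Stx1a had the largest striatal difference. Its 6 wild-type arrays read 8.23, 8.34, 7.51, 7.61, 8.62 and 8.07, and the 6 Q111 arrays read 8.89, 8.59, 8.91, 8.04, 8.64 and 9.05. Of the Q111 arrays, 5 of 6 lay above the wild-type mean, replicate 4 lay just below it, and the groups overlapped. The difference of 0.62 (SE 0.19, 95% interval 0.23 to 1.01) missed the threshold (adjusted p = 0.0755). Without Q111 replicate 4 it was 0.75 and passed (adjusted p = 0.0316), and without wild-type replicate 5 it was 0.73 and passed as well (adjusted p = 0.0418). Its other probe set differed by 0.45 (adjusted p = 0.277).

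Markers of cerebral cortex neurons moved with genotype in striatum. Of the 7 measured of 9 listed, 7 were higher in Q111 and 2 passed the threshold, Neurod6 by 1.12 and Fezf2 by 0.71. Between the wild-type tissues 4 of the 7 were higher in striatum and 3 in cerebellum, so the list is not specific to cortex. The mean level of the 7 was 6.37 to 7.07 on the wild-type striatum arrays and 6.67 to 7.71 on the Q111 striatum arrays. The Q111 array with the lowest mean level, replicate 4, also had the lowest Stx1a value, and that with the highest, replicate 6, the highest. The same was so of wild-type replicates 3 and 5. In the cerebellum 1 of the 7 was above 0. Of other lists in striatum, 3 of 7 microglial markers were called higher and 1 lower. Called lower were 2 of 5 endothelial and mural and 1 of 8 astrocyte markers, against 2.87% of all probe sets called. None passed in the remaining lists. There 8 of 9 oligodendrocyte markers lay below 0. Above 0 lay 3 of 10 striatal projection neuron, 1 of 6 Purkinje cell, 5 of 9 granule neuron, 4 of 7 GABA interneuron and 3 of 5 choroid plexus markers, against 44.6% of all probe sets. The part of these cell markers in the differences of the members was not tested.

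Unc13a, which encodes the priming factor Munc13-1, had the next largest striatal difference. Wild-type arrays ran from 8.37 to 9.14 (median 8.83) and Q111 arrays from 8.91 to 9.53. All 6 Q111 arrays lay above the wild-type mean, but the groups overlapped, and the difference of 0.36 (SE 0.14) had an adjusted p of 0.153. Doc2b, a calcium-binding protein of spontaneous release, ran from 8.36 to 9.10 in wild type and from 8.21 to 8.64 in Q111. All 6 Q111 arrays lay below the wild-type mean, and the difference of -0.31 (SE 0.14) had an adjusted p of 0.211.

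Nsf came closer to the threshold than Stx1a with a smaller difference, and Syn2 and Sv2a came closer than Unc13a and Doc2b. Nsf, Syn2 and Sv2a are named after their values were seen. The Nsf arrays read 12.24 to 12.39 in wild type and 12.40 to 12.58 in Q111, the single member whose groups did not overlap in striatum, against 2.39% of all probe sets. Its difference was 0.17 (SE 0.05, adjusted p = 0.0592). Syn2 differed by 0.24 (adjusted p = 0.0800) and Sv2a by 0.23 (adjusted p = 0.0874), each with 6 of 6 Q111 arrays above the wild-type mean. The other 3 kept probe sets of Syn2 differed by 0.11, -0.26 and -0.04, and the mean of all its kept probe sets by 0.012 (adjusted p = 0.968), so its difference rests on the probe set used.

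**Figure D4:**
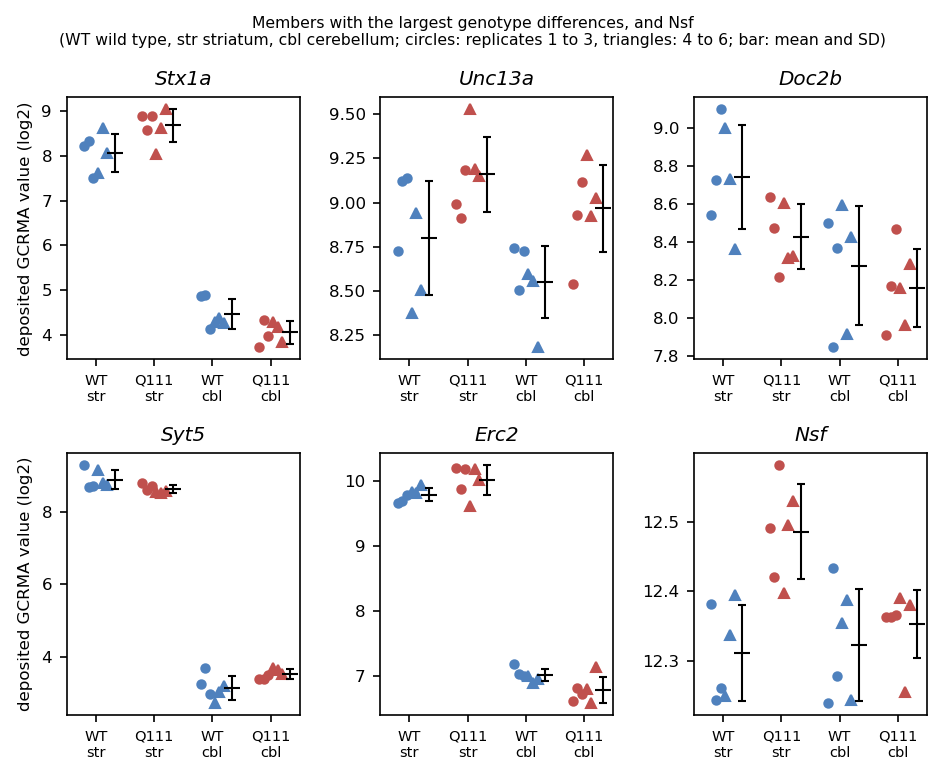
Deposited GCRMA values (log2) on every array for the 3 members with the largest values in each genotype comparison and in the interaction, and for Nsf, chosen after its values were seen. Erc2 is shown for its interaction value. Circles are replicates 1 to 3, triangles 4 to 6, bars the mean and SD of 6 arrays. The genotypes overlap in striatum for all but Nsf, whose highest wild-type array (12.39) lies just under the lowest Q111 array (12.40); axes do not start at 0.

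Nsf, Dnm1 and Syt7, also named after their values were seen, each had a probe set past the threshold other than the one used. A second Nsf probe set was higher in Q111 striatum by 0.39 (adjusted p = 0.0231), on the same side as the one used. A second Dnm1 probe set was higher by 0.70 (adjusted p = 0.0355), where the one used differed by 0.10. For Syt7 a probe set not used was higher by 0.34 (adjusted p = 0.0346), where the one used differed by -0.21, so its probe sets disagree in sign. A second Bsn probe set, also named after its values were seen, was higher by 0.61 but missed the threshold (limma, adjusted p = 0.0593). In all, 3 of 91 kept probe sets of the members were called in striatum, a share near the 2.87% of all probe sets, and 0 in cerebellum and 0 in the interaction.

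By role, 8 of 9 vesicle proteins, 5 of 9 fusion genes, 6 of 10 active zone genes and 3 of 3 endocytic genes lay above 0 in Q111 striatum. Of the 7 synaptotagmins 3 lay above 0, and of the 3 GABA genes 0 did. The GABA genes were close to 0, with differences of -0.01 for Gad1, 0.00 for Gad2 and -0.14 for Slc32a1. None of these counts includes a call, and they are descriptions.

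Replicate numbers 1 to 3 and 4 to 6 gave different pictures in striatum. Within numbers 1 to 3 the median member difference was 0.20, against -0.01 for all probe sets, and 32 of 41 lay above 0. Within numbers 4 to 6 the median was -0.04, against -0.05 for all probe sets, and 19 lay above 0. Stx1a was higher in both sets, by 0.77 and 0.47, while Unc13a differed by 0.03 and 0.68. Altogether 14 members were higher in both sets, 4 (Syt5, Syt11, Rims2 and Doc2b) lower in both, and 23 opposite.

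Syt7 and Sv2b, named after their values were seen, passed the threshold within 1 set each. The Syt7 wild-type arrays 1 to 3 ran from 7.94 to 8.59, against 8.30 to 9.03 in Q111, a difference of 0.46. Wild-type arrays 4 to 6 read 8.84, 8.96 and 9.10 against 8.03, 8.08 and 8.15 in Q111, a difference of -0.88 (adjusted p = 0.0498 within that set). Sv2b differed by 0.51 in the first set (adjusted p = 0.0446) and by -0.29 in the other. The labels do not say what the sets are. Over all probe sets of a tissue, the means of the sets differed with an SD of 0.0392 in striatum and 0.0384 in cerebellum, against 0.154 and 0.132 for the genotype differences. Both comparisons set 6 arrays against 6, and the median SE of the members' genotype differences was 0.095. The SDs cover all 45037 probe sets other than controls, including those under the filter, so they are not directly comparable with that error of the members. Over the same probe sets, the set means lay closer together than the genotype means. Why the set means lie so close, and what it means for the p-values, was not tested.

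**Figure D5:**
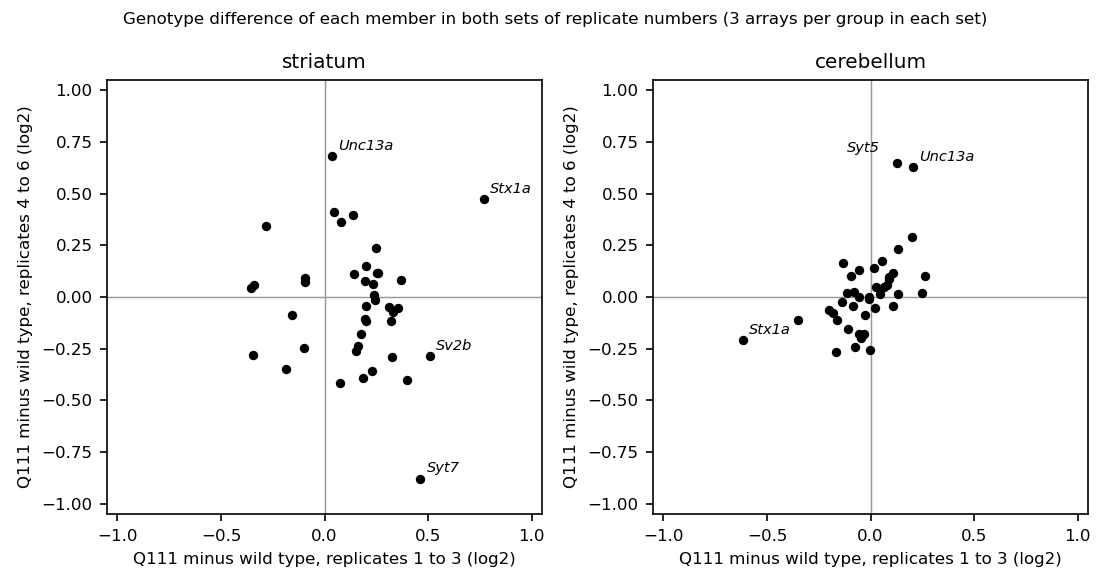
Genotype difference (Q111 minus wild type, log2) of each of the 41 members within replicates 1 to 3 (horizontal) and within replicates 4 to 6 (vertical), with 3 arrays per group in each set. In striatum 23 members lie in the quadrants of opposite sign, and in cerebellum 8 do.

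In cerebellum limma again called 0 of 41 members, against 0.458% of all probe sets, and 7 had an unadjusted p under 0.05, against 13.8%. The median difference was 0.00 and 20 of 41 lay above 0, against -0.05 and 34.5% for all probe sets. All 41 intervals lay within a 2-fold change, and 38 within 1.5-fold. The values of the genotypes overlapped for every member, against 1.12% of probe sets whose groups did not overlap.

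Unc13a read 8.54 to 9.27 in Q111 and 8.18 to 8.74 in wild type. Its difference was 0.42 (SE 0.14, adjusted p = 0.180) and 5 of 6 Q111 arrays lay above the wild-type mean. Stx1a read 3.72 to 4.33 in Q111 and 4.13 to 4.89 in wild type, a difference of -0.41 (SE 0.19, adjusted p = 0.332) with all 6 Q111 arrays below the wild-type mean. Some of these Q111 values lie under 4, and the other Stx1a probe set differed by -0.17 (adjusted p = 0.789). Syt5 read 3.38 to 3.70 in Q111 and 2.72 to 3.68 in wild type, a difference of 0.39 (SE 0.12, adjusted p = 0.169). These Syt5 values are under 4 on all 12 arrays, and with values under 4 set to 4 the difference is 0. Without wild-type cerebellum replicate 2, whose value of 3.68 was the highest of its group, the Syt5 difference was 0.50 and passed the threshold (adjusted p = 0.0350), still between values under 4.

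The interaction asks whether the genotype difference was larger in one tissue than in the other. It called 0 of 41 members, against 0.0868% of all probe sets (0.0434% above and 0.0434% below 0), and 5 had an unadjusted p under 0.05, against 10.1%. The median was 0.04 and 25 of 41 lay above 0, against 0.02 and 54.9% for all. Stx1a had the largest value, 1.03 (SE 0.27, 95% interval 0.48 to 1.59, adjusted p = 0.118), from 0.62 in striatum and -0.41 in cerebellum. The other probe set of Stx1a had 0.62 (adjusted p = 0.521), and some Q111 cerebellar values of the one used lie under 4. Syt5 had -0.65 (SE 0.18, adjusted p = 0.134). Without wild-type cerebellum replicate 2 it was -0.76 and passed (adjusted p = 0.0346), while with values under 4 set to 4 it was -0.27 and did not. Erc2 had 0.46 (SE 0.14, adjusted p = 0.179), with 5 of 6 Q111 arrays above the wild-type mean in striatum and 1 of 6 in cerebellum.

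Of 74 other presynaptic genes, 64 were tested. Between the tissues, 17 were higher in striatum and 34 in cerebellum, against 30.6% and 41.2% of all probe sets. The largest differences toward striatum were those of the synaptotagmin Syt16 (4.95), the RIM-binding protein Rimbp2 (4.74, or at least 4.38 with values under 4 set to 4) and the endophilin Sh3gl3 (3.97). Toward cerebellum they were those of Cadps2, a factor for dense-core vesicle release (-4.66), and the synaptotagmins Syt9 (-3.04) and Syt12 (-2.68). Cadps2 and Syt9 varied most among the striatal arrays, with SDs of 0.55 and 0.74.

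With genotype in striatum, 2 of these 64 passed the threshold, a share near the 2.87% of all probe sets. Lin7a, a scaffold that links synaptic membrane proteins, rose by 0.22 (SE 0.06, adjusted p = 0.0381), from 9.07 ± 0.09 to 9.29 ± 0.05 (SD, n = 6 arrays each). Syngr2, a synaptogyrin found widely outside neurons, fell by 0.38 (SE 0.10, adjusted p = 0.0355), from 7.26 ± 0.23 to 6.88 ± 0.03. For both genes the 6 Q111 arrays all fell on the same side of the mean of the wild-type arrays. In cerebellum and in the interaction limma called 0 of 64, with 7 at an unadjusted p under 0.05 in each.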

How the data were processed

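Per the labels' protocols, total RNA of 24 samples was prepared with Trizol and Qiagen columns and biotin-labelled. The submitters' processing notes name GCRMA, with no version, for the deposited table, and the range of its values was read as a log2 scale. Log base, joint normalisation and genome build are not given in the sources used here. The deposited log2 values run from -0.77 to 16.33.

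Of 45101 probe sets, 64 controls were left out and 20738 (46.0%) with a mean of at least 4 in a tissue were tested. Of the probe sets other than controls, 34945 pair with 1 symbol in the platform annotation, 932 with several and 9160 with none. A mean per group was fitted on all 24 arrays with limma 3.58.1 in R 4.3.3 (20 residual degrees of freedom, prior 3.22). Adjusted p is Benjamini-Hochberg over the 20738, with a threshold of 0.05. Differences are Q111 minus wild type or striatum minus cerebellum. Arrays carry no counts, and their number limits the precision.

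Members and lists were chosen with earlier results of these data known. Values were printed for the 3 largest genotype differences per comparison where fewer were called, and the 8 largest tissue differences each way. The code was tested on simulated data. Alternatives covered the filter, scaling, variance prior, weights, replicate blocks, number sets, probe sets and single arrays.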

Additional observations from a re-analysis of the deposited data

Results flagged for a closer look

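In 6 of 164 member groups of 6 arrays, the highest or lowest array stood apart from its neighbours by Dixon's test, where chance gives about 1 in 20. Syt6 read 5.27 on wild-type striatum replicate 2, with the next array at 4.72. Syn1 read 10.12 on wild-type cerebellum replicate 1, with the next at 9.99. On Q111 striatum replicate 4, Rims2 read 9.03 (next 8.82) and Gad1 read 13.55 (next 13.34). Nsf read 12.26 on Q111 cerebellum replicate 5, with the next at 12.36, and Slc32a1 read 9.21 on wild-type cerebellum replicate 2, with the next at 9.55. The genotype difference of Syt5 in striatum minus that in cerebellum was -0.65: all 6 Q111 striatum arrays lay below their wild-type mean and all 6 Q111 cerebellum arrays above theirs, while the interaction missed the threshold (adjusted p = 0.134, limma). The cerebellar values are under 4 on every array, and with values under 4 set to 4 the value was -0.27.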

How the results depend on the processing

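The count of 0 members called in striatum by genotype became 1 with no filter on dim probe sets (Nsf; 0.853% of all probe sets called), 2 with quantile normalisation (Syn2 and Sv2a; 3.10%), 3 with median centring (Syn2, Sv2a and Nsf; 2.79%), 1 with a trended and robust variance prior (Nsf; 3.29%), 2 with the mean of all kept probe sets of a gene (Bsn and Nsf; 2.84%), 1 in numbers 1 to 3 alone (Sv2b; 1.17%) and 1 in numbers 4 to 6 alone (Syt7; 1.21%); the cause was not tested. It stayed 0 with a filter of 5, array weights, the number set in the model, the arrays of the comparison alone and values under 4 set to 4. Leaving out 1 array at a time gave 0 to 1 in striatum (Sv2a without wild-type replicate 2, Stx1a without wild-type replicate 5 or Q111 replicate 4), 0 to 1 in cerebellum and 0 to 1 in the interaction (Syt5 without wild-type cerebellum replicate 2 in both), and 35 to 38 between the tissues. With the replicate block the counts were 0, 0, 0 and 36. Between the tissues, numbers 1 to 3 alone gave 35 calls (59.5% of all probe sets), with Syn1 and Syn2 lost. Numbers 4 to 6 alone gave 30 (57.8%), with Syt7, Sv2b, Cplx1, Cplx2, Rab3a, Doc2b and Napa lost. The deviations of same-numbered wild-type and Q111 arrays from their group means correlated at -0.409 to -0.0881 in striatum and -0.423 to 0.119 in cerebellum. In each tissue 0 of 6 correlated best with their own number. Between striatum and cerebellum the correlations were -0.00430 to 0.183 in wild type and -0.0547 to 0.142 in Q111. There 3 of 6 and 2 of 6 correlated best with their own number. The means of numbers 1 to 3 and 4 to 6 nearly coincide in each tissue (SD of their difference 0.0392 and 0.0384). Correlations within a tissue may therefore be negative whatever the pairing, and none of these values settles whether the numbers pair the samples. The tissue differences of Syn2 (-0.019) and Pclo (-1.28) changed sign with the mean of all kept probe sets. Members above 0 in striatum numbered 25, 28 with quantile normalisation and 30 with median centring, and in cerebellum 20, 25 and 29. The interaction has no value from the arrays of a comparison alone. A sign change of a member called under neither setting was not counted as a reversal.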
